A study of Mus musculus with 23 samples.

Results

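The comparison described here set uterine horns of mice given a hydrogel with human endometrial organoids (HG+ORG, replicates 18 to 23) against SHAM horns (replicates 1 to 6). Its members are the 12 libraries with those titles, of 23 libraries in all, and the groups came from the titles alone. The animals were female C57BL/6 mice, an inbred strain with a working immune system, and the labels give no age. In the HG+ORG horns the endometrium had been damaged with 70 degree ethanol, and the organoids were injected together with the hydrogel, a hybrid material derived from endometrium, 4 days later. The sources used here do not say how SHAM horns were treated. Tissue was taken 2 weeks after injection, and the endometrium was pressed out of each horn by hand to part it from the muscle. Poly(A) RNA was then sequenced and counted per gene. HG+ORG therefore differed from SHAM in the damage, the hydrogel and the organoids together, and the share of each cannot be told apart in this comparison. The HG group (damage and hydrogel, 6 libraries) and the PBS group (damage and saline, 5 libraries) are given below as values beside the members. The 23 libraries came from 21 mice, so some horns of the series share an animal, and the labels do not say which. The p-values measure the spread between these libraries. One library of the comparison, HG+ORG replicate 18, stood apart from the other 5, and results are given with and without it.

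The endometrium is an inner lining of epithelium and glands on a vascular stroma, and after injury it is cleared of debris by macrophages and rebuilt from the cells that are left. Macrophages that take up lipid or foreign material switch on lysosomal and matrix-degrading genes, and at implanted materials they can fuse into giant cells. B cells, and the plasma cells that develop from them, make antibody, while T cells recognise peptides shown on major histocompatibility complex (MHC) proteins. Cholesterol made in the cell is controlled by SREBP transcription factors, which are held in the endoplasmic reticulum (ER) by INSIG proteins and released by the proteases MBTPS1 and MBTPS2 when sterols are low.

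Total counts ran from 7920918 to 14688135 over the 12 libraries, with a median of 12981905, and genes of the mitochondrial genome took 1.497 to 11.4% of them. Levels below are given in log2 CPM, the log of a gene's share of its library's counts. A prior count of 2 was added, so that a gene without counts stands at -2.66. The score of a list averages this level over its tested genes. Folds are fitted log2 folds of HG+ORG over SHAM from edgeR. The label of endometrium held in 11 of the 12 libraries by its epithelial markers. Epcam, an adhesion protein of epithelial cells, stood at 10.05 to 11.43 in SHAM and at 9.75 to 11.05 in HG+ORG replicates 19 to 23, but at 7.13 in replicate 18. Esr1, the estrogen receptor of endometrium, was at 8.17 to 8.89 in SHAM, at 8.07 to 8.55 in those 5 libraries and at 3.82 in replicate 18. Replicate 18 also had Cela1 at 10.80 and Ctrl at 9.39, both proteases best known from the pancreas, against at most 2.52 and 1.37 in the other 11 libraries. Of the 12 pancreatic acinar markers, 9 have no row in the table used here. The remaining one, Cpb1, a pancreatic carboxypeptidase, did not pass the filter on low counts but had 5889 counts in replicate 18 and at most 1 in the other 11, so all 3 listed markers stood high in that horn. The part of acinar-type RNA in the results that rest on replicate 18 was not tested. SHAM replicates 5 and 6 were the most alike of 30 within-group pairs but not identical (chi-square per degree of freedom 2.90, against 17.9 for the next pair), and they were counted as 2 samples. The labels do not say whether these 2 horns came from 1 animal.

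No gene of 17708 passed edgeR's quasi-likelihood test at a Benjamini-Hochberg adjusted p of 0.05, a call rate of 0%, and the smallest adjusted p was 0.209. Without an adjustment 1432 genes (8.09%) had p under 0.05 with a fold above 0 and 322 (1.82%) with a fold below 0. Without replicate 18 again 0 of 17664 genes passed (0%), the smallest adjusted p by edgeR was 1.00, and the unadjusted counts were 331 higher (1.87%) and 277 lower (1.57%). Of the 1432 genes, 1275 had their highest level of the 12 libraries in replicate 18, and 244 kept p under 0.05 without it. The other tools gave 83 genes (DESeq2: 81 higher, 0.466%, and 2 lower, 0.0115%), 0 (limma-voom) and 1 (limma-voom with sample quality weights). In 73 of the 83, replicate 18 was the highest library, and without it all 3 tools called 0. The median fold of all genes was 0.06 with every library and 0.01 without replicate 18, and 56.3% and 51.4% of folds were above 0, leaving 43.7% and 48.6% below it. The groups of single genes below are therefore described by their values in each library, and no gene named passed the edgeR test.

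**Figure D1:**
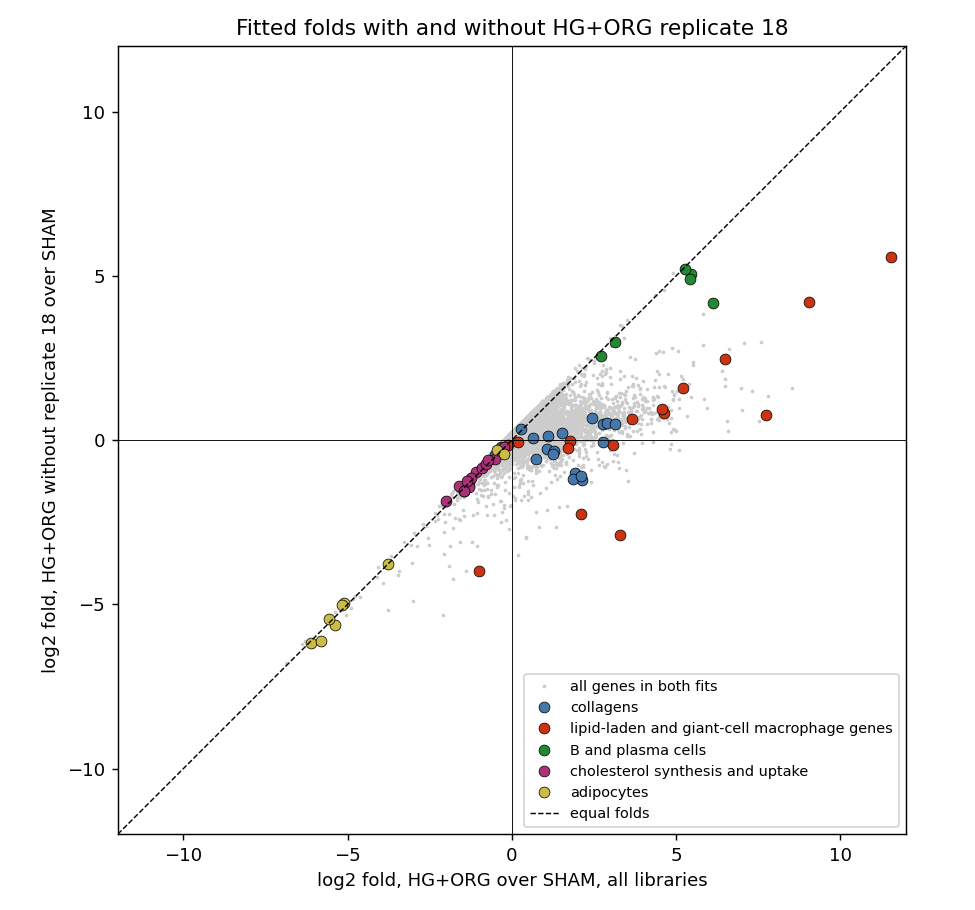
Each grey point is a gene, placed by its fitted log2 fold of HG+ORG over SHAM with all 12 libraries of the comparison (x axis) and without HG+ORG replicate 18 (y axis), both in log2 units, and coloured points are members of 5 lists. Genes of the cholesterol (median -1.27 and -1.26) and adipocyte lists (-5.17 and -5.02) lie near the line of equal folds, whereas Igha of the B and plasma cell list (6.12 and 4.17), collagen genes (median 1.70 and -0.17) and lipid-laden macrophage genes (3.47 and 0.30) lie below it.

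Macrophage genes were higher in 4 of the 6 HG+ORG horns. In bulk tissue more cells of a type and more RNA per cell cannot be told apart, here and in every list below. Lyz2, the lysozyme of macrophages and neutrophils, stood at 5.88, 6.62, 4.06, 3.93, 6.52 and 6.41 in SHAM replicates 1 to 6 and at 13.89, 6.16, 7.35, 9.73, 6.02 and 8.73 in HG+ORG replicates 18 to 23. Replicates 18, 20, 21 and 23 lay above every SHAM horn and replicates 19 and 22 lay among them. The fold of Lyz2 was 5.52 (SE 1.25, edgeR adjusted p = 0.209) and 2.38 (SE 0.75) without replicate 18. Mmp12, the macrophage elastase that cuts elastin, had 5, 14, 1, 1, 2 and 4 counts in SHAM replicates 1 to 6 and 50691, 8, 61, 389, 20 and 521 counts in HG+ORG replicates 18 to 23. Its fold was 11.53 (SE 2.69) with and 5.58 (SE 1.72) without replicate 18, and replicate 19 lay inside the SHAM range. Gpnmb, a lysosomal membrane glycoprotein of lipid-loaded macrophages, was at -1.83 to 2.60 in SHAM and at 13.18, 2.07, 4.53, 6.73, 3.04 and 7.09 in HG+ORG replicates 18 to 23, so that only replicate 19 overlapped SHAM.

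The same 4 horns were above SHAM for the complement subunits C1qa, C1qb and C1qc, which tissue macrophages make. C1qb stood at 2.14 to 5.27 in SHAM, at 10.28, 6.43, 6.86 and 6.67 in HG+ORG replicates 18, 20, 21 and 23, and at 4.71 and 4.25 in replicates 19 and 22. Trem2, a lipid-sensing receptor, was at -1.14 to 2.96 in SHAM and reached 9.87 in replicate 18 but 3.97 to 4.54 in replicates 20, 21 and 23. Atp6v0d2, a proton pump subunit of osteoclasts and fused macrophages, stood at 9.91, 4.40 and 4.56 in replicates 18, 21 and 23, with SHAM at -2.66 to 1.57. Adgre1, which codes for the macrophage marker F4/80, had a fold of 2.70 (SE 0.80) and, without replicate 18, of 1.29 (SE 0.63).

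All 16 genes of the macrophage and monocyte list had folds above 0, with a median of 2.46, and 12 were at unadjusted p under 0.05, against 8.09% of all genes. Without replicate 18 it was 15 of 16, with a median of 0.92 and 4 at p under 0.05, against 1.87%. The list score was 2.54 to 4.41 in SHAM, 3.15 to 5.55 in HG+ORG replicates 19 to 23 and 8.21 in replicate 18. Genes of lipid-laden and giant-cell macrophages depended more on that 1 horn: 14 of 16 folds were above 0 with it (median 3.47) and 8 of 16 without it (median 0.30). Ctsk, a collagen-cutting cathepsin, stood at 11.66 in replicate 18 and at 0.35 to 3.64 in the other HG+ORG horns, beside 0.45 to 1.98 in SHAM. Spp1 (osteopontin) turned sign, from a fold of 3.09 to -0.16, and Cd68, a lysosomal marker of macrophages, from 1.75 to -0.02. Arg1, an arginase that wound macrophages and other cells make, spread between 4.25 and 12.15 in SHAM and between 1.499 and 11.81 in HG+ORG, with a fold of -0.10.

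Chemokine and cytokine genes had mostly folds above 0. In their list 24 of 25 folds were above 0 with replicate 18 and 24 of 25 without it, with medians of 2.26 and 1.29, and 14 and 8 genes were at unadjusted p under 0.05, against 8.09% and 1.87% of all genes. The list score was 0.80 to 3.02 in SHAM and 6.46, 3.005, 1.60, 4.52, 0.55 and 2.95 in HG+ORG replicates 18 to 23, so that only replicates 18 and 21 lay above SHAM. Without both of these and SHAM replicate 3 the median fold was 0.38. Ccl8, which draws in monocytes and T cells, was at -0.90 to 1.64 in SHAM and at 5.36, 0.08, 0.84, 6.81, 0.50 and 5.13 in HG+ORG replicates 18 to 23. Replicates 18, 21 and 23 stood above SHAM and the other 3 within it, and the fold was 4.64 (SE 1.31), or 4.56 (SE 1.35) without replicate 18. Ccl7, a related monocyte attractant, was at -0.41 to 0.61 in SHAM, at 7.48, 4.65 and 2.75 in replicates 18, 21 and 23, and at -0.73 to 0.91 in the remaining 3. Tnf, the central inflammatory cytokine, stood at 3.62, 3.64, 4.19 and 2.31 in replicates 18, 19, 21 and 23, beside -0.15 to 2.46 in SHAM, so that replicate 23 was inside that range. Il10, an anti-inflammatory cytokine, had 0 to 6 counts per SHAM horn and 17, 7, 2, 39, 2 and 17 counts in HG+ORG replicates 18 to 23. The neutrophil attractants Cxcl2 and Cxcl3 were at 12.45 and 10.75 in replicate 18, but SHAM replicate 2, at 6.77 and 2.96, exceeded 4 of the other 5 HG+ORG horns for Cxcl2 and all 5 for Cxcl3.

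**Figure D2:**
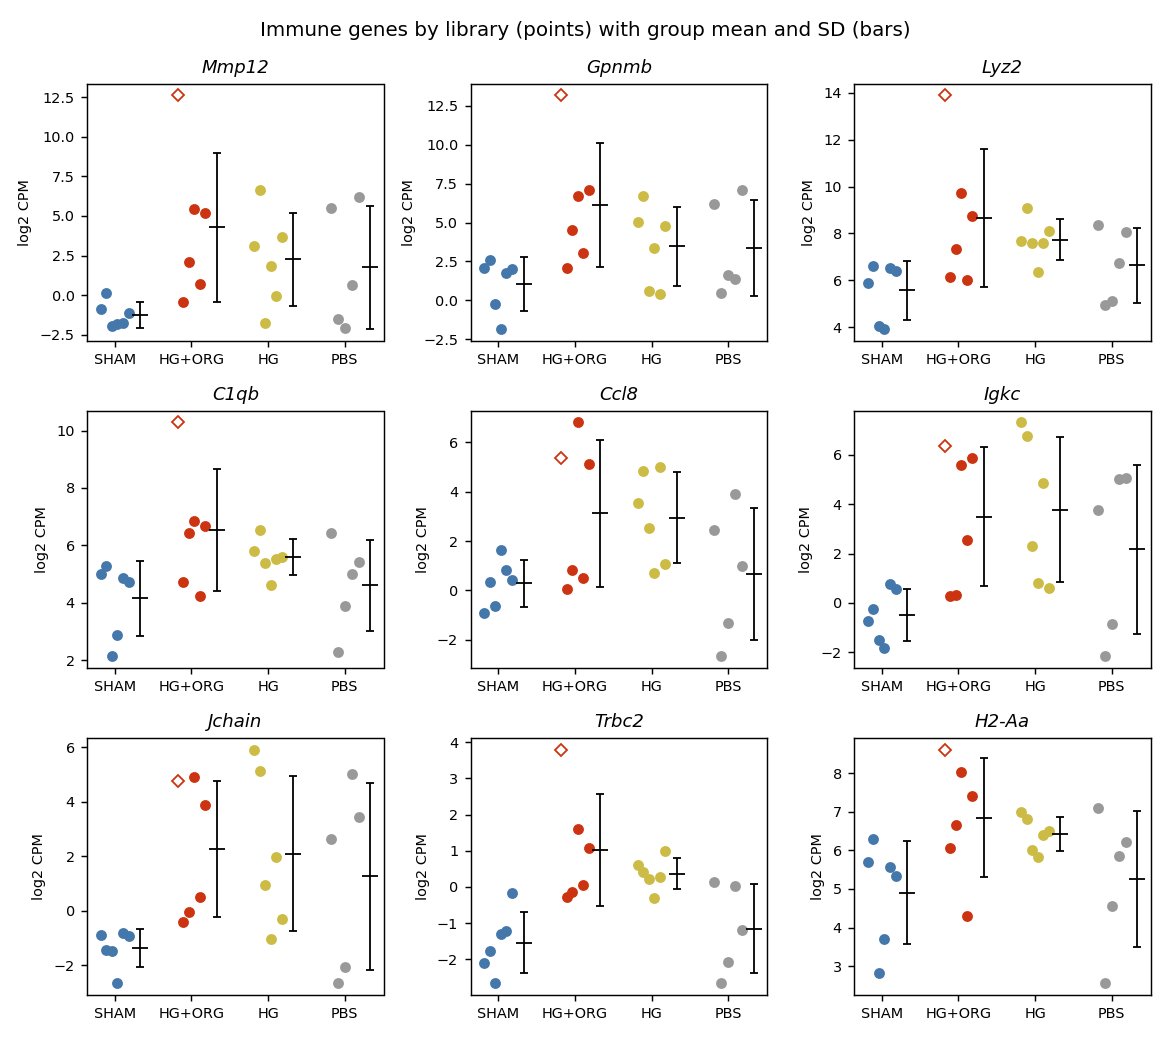
Levels of 9 immune genes in log2 CPM (y axes) for each library of the 4 groups, with bars for the group mean and SD (n = 6 for SHAM, HG+ORG and HG, n = 5 for PBS) and an open diamond for HG+ORG replicate 18. SHAM horns sit low for Mmp12 (-1.96 to 0.16) and Igkc (-1.83 to 0.78), while the HG+ORG, HG and PBS horns are spread widely.

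Antibody genes were higher in HG+ORG with or without replicate 18. Jchain, the chain that joins antibodies into polymers, stood at -0.90, -1.46, -1.49, -2.66, -0.83 and -0.93 in SHAM replicates 1 to 6 and at 4.78, -0.41, -0.03, 4.89, 0.50 and 3.88 in HG+ORG replicates 18 to 23. The groups did not overlap, replicates 18, 21 and 23 were the high ones, and the fold was 5.46 (SE 1.58, edgeR adjusted p = 0.223) or 5.07 (SE 1.60) without replicate 18. Over all genes 11 of 17708 (0.0621%) were higher in every HG+ORG horn than in any SHAM horn. Among this many genes such gaps can also arise by chance, which was not tested. Igkc, the constant part of the kappa light chain, was at -1.83 to 0.78 in SHAM and at 6.36, 0.27, 0.32, 5.60, 2.55 and 5.87 in HG+ORG replicates 18 to 23, with folds of 5.43 (SE 1.49) and 4.91 (SE 1.49). Replicates 19 and 20 fell inside the SHAM range. Igha, the heavy chain of mucosal antibody, had 0 to 6 counts per SHAM horn and 644, 2, 3, 107, 15 and 126 counts in HG+ORG replicates 18 to 23.

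The switched antibody chain Ighg1 had 0 counts in every SHAM horn and 222, 0, 0, 36, 0 and 52 counts in HG+ORG replicates 18 to 23. Pou2af1, a coactivator of antibody genes, had 0 or 1 count per SHAM horn and 11, 4, 3, 11, 2 and 13 counts in HG+ORG. It also did not overlap between the groups, at counts too low for a firm level. Of the 8 tested B and plasma cell genes 6 had folds above 0 and p under 0.05 in both fits, against 8.09% and 1.87% of all genes, and the median fold was 4.21, or 3.57 without replicate 18. The list also had 2 folds below 0 in each fit, so not every B lineage gene was higher. Cd79b, a B cell gene, had folds of -0.34 and, without replicate 18, -0.26. Mzb1, a plasma cell gene, had 6, 4, 3, 0, 11 and 6 counts in SHAM replicates 1 to 6. In HG+ORG replicates 18 to 23 Mzb1 had 1, 2, 1, 0, 14 and 5 counts. In a wider list of B lineage genes and antibody chains, assembled after values had been seen, 13 of 18 folds were above 0 (median 3.28). Of these genes 11 were at p under 0.05. Of all genes 56.3% had folds above 0 and 8.09% were at p under 0.05 and higher. Without replicate 18 it was 9 of 15 (median 2.11) with 8 at p under 0.05, against 51.4% and 1.87%. The median of the wider list was 1.61 without replicate 21 and 2.09 without replicate 23. It was 0.86 when only the 12 SHAM and HG+ORG libraries were fitted, and 0.37 at the lowest over all settings. Antibody chains are near-identical copies in part, so how reads were divided among them is uncertain.

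Some T cell genes were higher, at low counts. Cd3g, a chain of the T cell receptor complex, had 1, 2, 2, 1, 6 and 1 counts in SHAM and 66, 4, 12, 22, 5 and 20 in HG+ORG replicates 18 to 23. Its fold was 3.60 (SE 0.81) with and 2.53 (SE 0.69) without replicate 18, and SHAM replicate 5 overlapped replicates 19 and 22. Trbc2, the constant part of the receptor's beta chain, stood at -2.66 to -0.17 in SHAM and at 3.80, -0.27, -0.14, 1.59, 0.07 and 1.08 in HG+ORG, where only replicate 19 lay inside the SHAM range. Over the T and NK cell list, 9 of 11 folds were above 0 (median 0.66), against 56.3% of all genes. Without replicate 18 it was 8 of 10 (median 0.36), against 51.4%. The list had 2 folds below 0 in each fit. Gzma, a granule protease of killer lymphocytes, had 9, 5, 20, 2, 16 and 6 counts in SHAM. In HG+ORG replicates 18 to 23 Gzma had 3, 4, 4, 10, 7 and 6 counts.

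MHC genes were above 0 in 15 of 16 folds, and in 16 of 16 without replicate 18, with medians of 0.53 and 0.51. H2-Aa, a chain of MHC class II, stood at 5.70, 6.30, 2.82, 3.71, 5.58 and 5.32 in SHAM and at 8.61, 6.06, 6.67, 8.05, 4.302 and 7.41 in HG+ORG replicates 18 to 23. Replicates 18, 20, 21 and 23 exceeded every SHAM horn, replicate 22 was lower than 4 of them, and the folds were 2.09 (SE 0.68) and 1.65 (SE 0.66). Psmb9, a subunit of the immunoproteasome that cuts peptides for MHC class I, differed little but evenly, at 4.66 to 5.74 in SHAM and 5.71 to 6.09 in HG+ORG.

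Genes of cholesterol synthesis were lower in HG+ORG, with and without replicate 18. Of the 16 list genes 15 had folds below 0, with a median of -1.27, and 13 were at unadjusted p under 0.05, against 1.82% of all genes in that direction. Of all genes, 43.7% had folds below 0. Without replicate 18, 15 of 15 were below 0, with a median of -1.26 and 9 at p under 0.05, against 1.57%. The list score was 4.87, 5.05, 5.65, 7.09, 5.57 and 5.52 in SHAM replicates 1 to 6 and 4.26, 4.83, 4.81, 4.93, 4.94 and 4.53 in HG+ORG replicates 18 to 23. The HG+ORG horns lay close together, SHAM replicates 1 and 2 were near them, and SHAM replicate 4 was the highest. The size rested in part on SHAM replicate 4: without it the median fold was -0.59, and without it and replicate 18 it was -0.58.

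The promoters of 2 list genes with a known sterol response, 1 that makes sterols and 1 that senses them, are given from RefSeq (build GRCm38.p6, plus strand, 250 bases before the start site), since the counts were made on GRCm39. Capitals mark the sterol response element TCACNCCAC and the CCAAT box (CCAAT, or ATTGG on the other strand), both searched on both strands.
Hmgcs1, chr13:119690101-119690350: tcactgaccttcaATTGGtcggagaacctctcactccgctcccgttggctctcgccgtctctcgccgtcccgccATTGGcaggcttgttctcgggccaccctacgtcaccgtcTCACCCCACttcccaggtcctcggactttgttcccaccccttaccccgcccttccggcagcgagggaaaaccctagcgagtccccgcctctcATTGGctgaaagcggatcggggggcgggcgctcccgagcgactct
Insig1, chr5:28071162-28071411: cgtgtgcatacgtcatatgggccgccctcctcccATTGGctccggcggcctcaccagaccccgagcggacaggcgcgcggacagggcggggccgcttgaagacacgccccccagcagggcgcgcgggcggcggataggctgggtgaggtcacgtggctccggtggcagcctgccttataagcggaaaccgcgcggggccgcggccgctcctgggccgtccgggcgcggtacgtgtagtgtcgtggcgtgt
Hmgcs1 held 1 sterol response element and 3 CCAAT boxes in this window, and Insig1 0 and 1. Among the 9 list genes with a window, 9 held a CCAAT box in at least 1 window and 1 held the sterol response element. Of 32851 single windows, 33.8% held a CCAAT box and 1.05% the sterol response element. The list was counted by gene, over any window of the gene, so these shares are no like-for-like background. A match is a description of letters, not a bound site.

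By role in the pathway, the sensors and regulators came first. Insig1, which holds SREBP in the ER and is itself an SREBP target, stood at 4.32, 4.56, 5.62, 6.95, 6.13 and 5.92 in SHAM and at 4.65, 4.14, 4.39, 4.49, 4.54 and 4.02 in HG+ORG replicates 18 to 23. All HG+ORG horns lay below SHAM replicates 3 to 6 and close to replicates 1 and 2, and the folds were -1.47 (SE 0.50, edgeR adjusted p = 0.280) and -1.55 (SE 0.55). Srebf2, the SREBP of cholesterol genes, was at 7.21 to 8.42 in SHAM and 5.97 to 7.43 in HG+ORG. Mbtps2, the protease that frees SREBP, was at 5.63 to 6.09 in SHAM and 4.94 to 5.62 in HG+ORG, a small difference without overlap. The groups did not overlap in that direction for 18 of 17708 genes (0.102%), and chance as a source of such gaps was not tested. Among the enzymes, Sqle, which makes squalene epoxide, was at 5.62 to 8.06 in SHAM and 4.20 to 5.64 in HG+ORG, with folds of -1.37 and -1.26. Idi1, an isomerase of the isoprenoid steps, had the folds farthest below 0 of the cholesterol genes named here, -2.02 (SE 0.66) and -1.86 (SE 0.68).

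**Figure D3:**
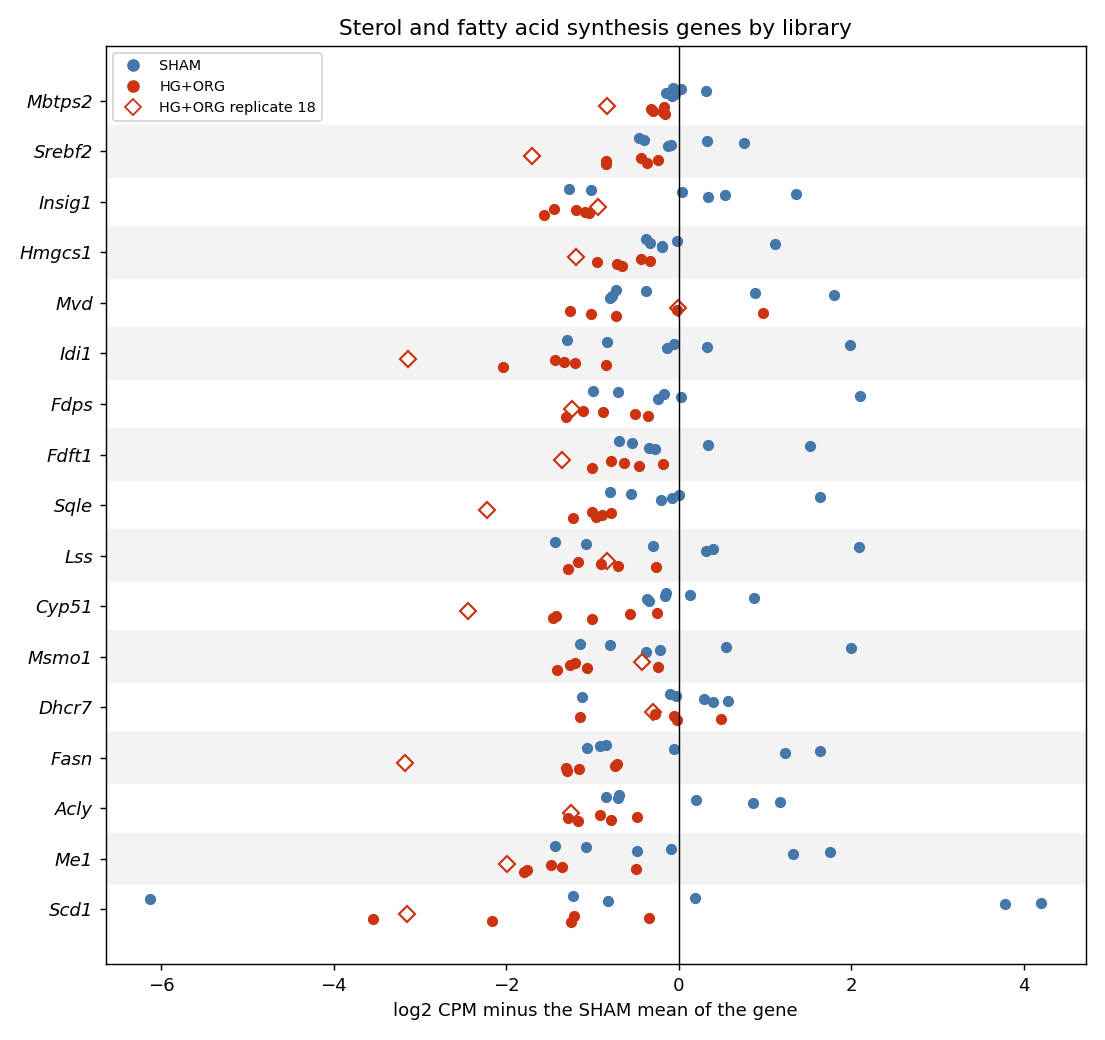
Levels of 17 genes of sterol and fatty acid synthesis (rows) in each library as log2 CPM minus the gene's SHAM mean (x axis), with SHAM in blue, HG+ORG in red and HG+ORG replicate 18 as an open diamond. HG+ORG horns lie mostly left of 0, and for Sqle replicate 18 is the lowest of all at 4.20 log2 CPM.

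Fatty acid genes were also lower, but with fat-cell genes. In a list of SREBP activation and fatty acid synthesis, assembled after values had been seen, 15 of 17 folds were below 0 (median -0.88), and 17 of 17 without replicate 18 (median -1.04). Scd1, a desaturase of fatty acids, stood at 6.45, 7.86, 1.55, 6.85, 11.88 and 11.46 in SHAM and at 4.53, 6.46, 7.33, 4.13, 5.51 and 6.42 in HG+ORG replicates 18 to 23. SHAM replicates 5 and 6 were the high ones and SHAM replicate 3 the lowest of the 12. The adipocyte list had 9 of 9 tested genes below 0 in both fits, with medians of -5.17 and -5.02. Its score was -0.24, 4.50, 0.28, 3.90, 6.97 and 6.58 in SHAM and -0.82 to 2.91 in HG+ORG. Adipoq, the fat-cell hormone adiponectin, had 0 counts in SHAM replicates 1 and 3 and 118 to 2993 in the other 4, against 0 to 115 in HG+ORG. The part of these fat-cell genes in the lipid synthesis folds was not tested.

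Oxtr, the oxytocin receptor, and Pnpla3, a lipase of fat and liver cells, followed SHAM replicates 5 and 6 as well. Oxtr had 6, 13, 3, 19, 374 and 252 counts in SHAM and 4, 1, 5, 3, 2 and 1 in HG+ORG replicates 18 to 23. Its fold was -5.05 (SE 1.52, edgeR adjusted p = 0.226) and -5.33 (SE 1.71) without replicate 18, or -4.45 with SHAM replicates 5 and 6 summed to 1 sample. Pnpla3 had 230 and 183 counts in those 2 SHAM horns and 0 to 7 in the other 10 libraries.

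Genes of protein entry into the ER and of N-glycosylation were slightly lower. The list was assembled after values had been seen, because several of the genes without overlap work there, and so its counts support nothing beyond these libraries. Of its 46 genes 41 had folds below 0 (median -0.31), or 43 without replicate 18 (median -0.34), with 13 at unadjusted p under 0.05 in each, against 1.82% and 1.57% of all genes in that direction. Ccdc47, part of a translocon chaperone, was at 6.85 to 7.20 in SHAM and 6.29 to 6.79 in HG+ORG. Srpr, the receptor that brings ribosomes to the ER, was at 7.07 to 7.90 and 6.69 to 7.01. Dolk, a kinase that makes the lipid carrier of N-glycans, was at 4.49 to 4.83 and 3.80 to 4.45. Mogs, the glucosidase that trims new glycans, was at 6.75 to 6.94 and 6.27 to 6.74. March6 and Tmx3, an ER ubiquitin ligase and an ER oxidoreductase, likewise did not overlap. These differences are all below 1 log2 unit. Over all genes 18 of 17708 (0.102%) lay lower without overlap, and the list was built with such genes in view. Hspa13 and Spcs3, an ER-resident chaperone and a signal peptidase subunit, were free of overlap only without replicate 18. Their folds were then -0.60 (SE 0.17) and -0.48 (SE 0.15). In that setting 27 of 17708 genes (0.152%) lay lower without overlap.

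**Figure D4:**
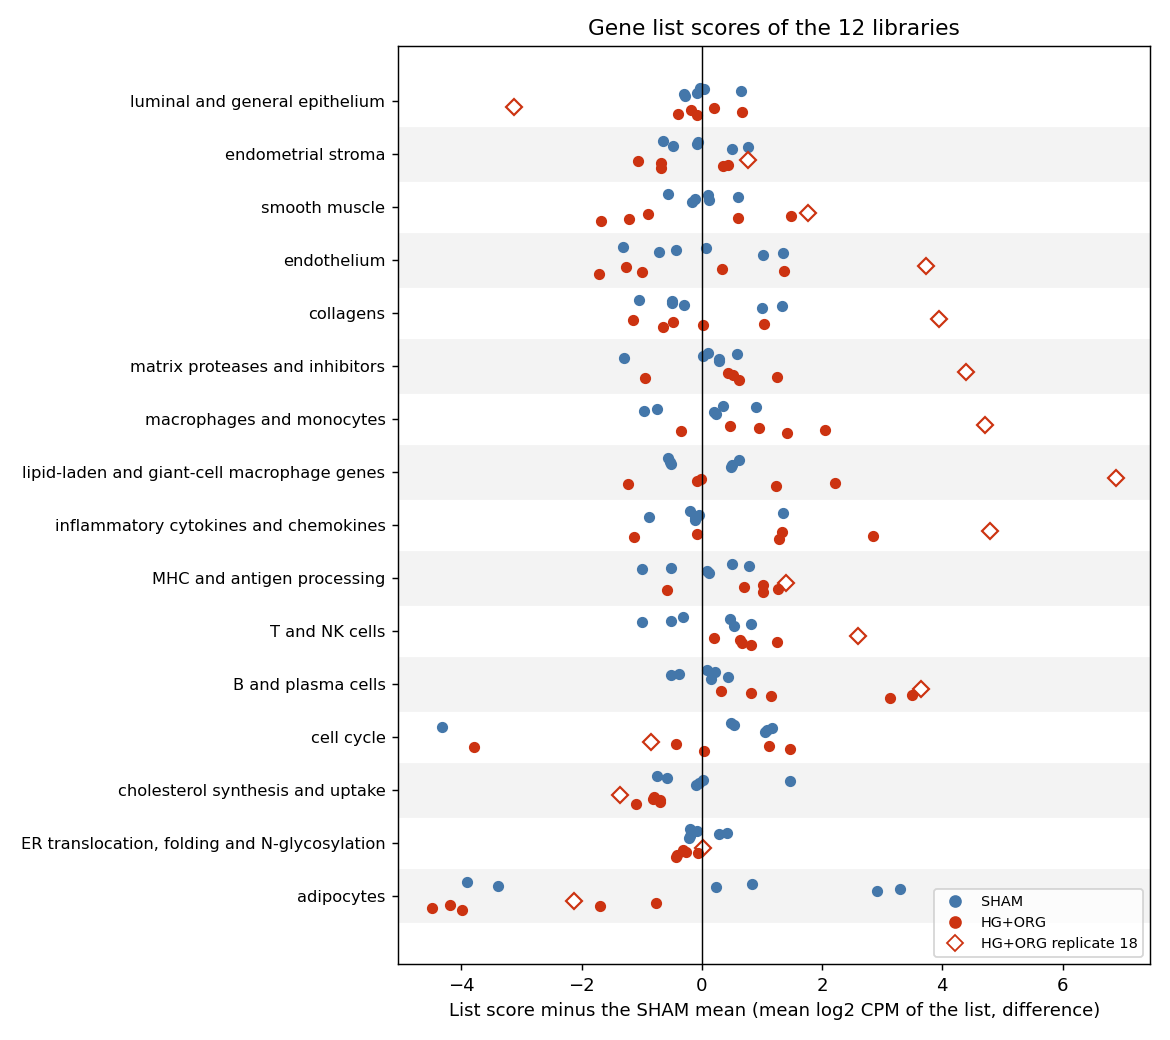
List scores of 16 gene lists (rows) for the 12 libraries, as the mean log2 CPM of the list minus the SHAM mean (x axis), with SHAM in blue, HG+ORG in red and HG+ORG replicate 18 as an open diamond. Replicate 18 lies far right for collagens and macrophage genes and far left for epithelium, while HG+ORG horns gather to the left for cholesterol synthesis (4.26 to 4.94, SHAM 4.87 to 7.09).

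The genes with the smallest p in each direction were partly the ones above and partly others, and none passed. Il7r, a receptor of lymphocytes, stood at -2.66 to -0.25 in SHAM and at 7.88, -0.91, 1.09, 2.15, -1.14 and 2.39 in HG+ORG replicates 18 to 23, with folds of 7.06 (SE 1.56) and 2.96 (SE 0.92). Bcl2a1b, a survival factor of blood cells with near-identical copies, had folds of 5.50 and 2.28, Cd200r4, a receptor of myeloid cells, 5.82 and 2.90, and F10, coagulation factor X, 6.61 and 2.77. In all 4, replicates 18, 21 and 23 lay above every SHAM horn and replicate 22 lay inside the SHAM range. Of the genes with folds below 0, some differed by little. Ranbp2, a protein of the nuclear pore, was at 7.42 to 8.13 in SHAM and 6.71 to 7.53 in HG+ORG, with folds of -0.53 (SE 0.16) and -0.46 (SE 0.16), and Smg8, a factor of RNA decay, at 4.48 to 5.01 and 4.14 to 4.65. Oxtr, Pnpla3 and Cd209f had folds of -5.05, -6.30 and -4.11. Cd209f, a lectin receptor, was high in the SHAM horns with Oxtr, at 2.37 and 2.25 in SHAM replicates 5 and 6 and at most -0.74 in HG+ORG. Without replicate 18, Ptbp2, a splicing regulator, was above 0 with a fold of 0.68 (SE 0.19) and Tmx1, an ER oxidoreductase, below it with -0.36 (SE 0.12).

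Collagen and vessel genes had mostly folds above 0 with replicate 18 and not without it. Collagens had 17 of 18 folds above 0 (median 1.70) and 8 of 18 without it (median -0.17), and the score was 7.94 in replicate 18, 2.85 to 5.03 in the other HG+ORG horns and 2.95 to 5.34 in SHAM. Col1a1, the main fibrillar collagen, stood at 3.80, 4.61, 6.21, 6.23, 7.42 and 7.04 in SHAM and at 11.86, 3.97, 4.77, 8.54, 6.39 and 6.02 in HG+ORG, with folds of 3.13 (SE 1.416) and 0.48 (SE 1.18). Col3a1 behaved alike, at 2.78 and 0.48. Matrix glycoprotein and crosslinking genes had 17 of 18 folds above 0, and 9 of 18 without replicate 18. Matrix proteases and inhibitors had 17 of 19, and still 12 of 19 without replicate 18 (medians 2.16 and 0.24). Endothelial genes went from 14 of 14 folds above 0 to 3 of 14, with medians of 1.205 and -0.22. Tgfb1, a fibrogenic growth factor, went from 2.35 (SE 0.71) to 0.50 (SE 0.41), and Igf1, a growth factor of stroma, from 1.34 to -0.86. Vegfa, the main vessel growth factor, was at 5.13 to 8.95 in SHAM and 6.60 to 9.40 in HG+ORG, with folds of 0.44 and 0.41.

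Genes of the endometrium itself overlapped between the groups. The epithelial score was 8.32 to 9.28 in SHAM and 8.23 to 9.30 in HG+ORG replicates 19 to 23, against 5.50 in replicate 18, and the stromal score was 3.28 to 4.69 and 2.86 to 4.69. Pgr, the progesterone receptor, spread between 5.64 and 9.29 over SHAM horns and between 2.58 and 9.49 over HG+ORG horns. Its fold was -0.05, or 0.20 without replicate 18. Foxa2, the gland transcription factor, stood at 2.26 to 3.66 and 2.42 to 4.69, with a fold of 0.60 (SE 0.54). Hoxa10 and Lif, a stromal patterning gene and the cytokine needed for implantation, had folds of -0.20 and 0.15. Mki67, a marker of dividing cells, was at 7.62 to 8.94 in 5 SHAM horns and at 0.62 in SHAM replicate 3, and HG+ORG replicate 21 was at 2.00 against 5.97 to 9.00 in the other HG+ORG horns. The fold of Mki67 was -0.65, and -1.32 to -0.42 over left-out libraries. In each group 1 horn had low cell cycle genes, with list scores of 1.498 and 2.04. Of the 25 cell cycle genes 25 had folds below 0 (median -0.37), against 43.7% of all genes. Without replicate 18 it was 24 of 25 (median -0.21), against 48.6%. In both fits 0 of them were at unadjusted p under 0.05.

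Setting the same HG+ORG horns against hydrogel alone gave 0 of 17708 genes by edgeR (0%), with a smallest adjusted p of 0.270, and 918 (5.18%) higher and 819 (4.63%) lower at unadjusted p under 0.05. DESeq2 called 163. Without replicate 18 edgeR again gave 0 of 17664 genes (0%), with a smallest adjusted p of 0.169, and 479 (2.71%) higher and 1638 (9.27%) lower at unadjusted p under 0.05. The 2 comparisons share the HG+ORG libraries. Smooth muscle genes had a median fold of 0.72 against SHAM, or 0.12 without replicate 18. Against HG, 0 of their 14 folds were above 0, with a median of -2.88 (-3.41 without replicate 18), and the score was 1.71 to 2.88 in SHAM, 0.61 to 4.04 in HG+ORG and 2.55 to 7.27 in HG. Endometrial stroma genes had 2 of 16 folds above 0 against HG, with a median of -1.40, while 55.7% of all genes were above 0 and 44.3% below. Without replicate 18 it was 1 of 16, with a median of -2.26, while 51.1% of all genes were above 0 and 48.9% below. The macrophage and monocyte score was 5.04 ± 1.75 (SD, n = 6) in HG+ORG and 4.41 ± 0.91 without replicate 18. In HG it was 4.495 ± 0.44 and in SHAM 3.50 ± 0.71. The chemokine and cytokine score was 3.18 ± 2.10, 2.52 ± 1.52, 2.52 ± 0.80 and 1.68 ± 0.73 in that order. Against HG, 14 of 16 macrophage folds and 20 of 25 chemokine folds were above 0. Leaving out replicate 18 gave 10 of 16 and 15 of 25. Antibody genes overlapped widely with HG. Igkc stood at 3.50 ± 2.82 (SD, n = 6) in HG+ORG, 3.78 ± 2.95 (n = 6) in HG and 2.17 ± 3.42 (n = 5) in PBS, beside -0.49 ± 1.06 (n = 6) in SHAM. The cholesterol score was 4.72 ± 0.27 in HG+ORG, 5.31 ± 0.95 in HG, 4.94 ± 0.52 in PBS and 5.63 ± 0.78 in SHAM. HG horns ran from 4.29 to 6.59 and overlapped both HG+ORG (4.26 to 4.94) and SHAM (4.87 to 7.09). Against HG, 0 of 16 folds of the cholesterol list were above 0, with a median of -1.02. Without replicate 18 again 0 were above 0, with a median of -0.95.

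**Figure D5:**
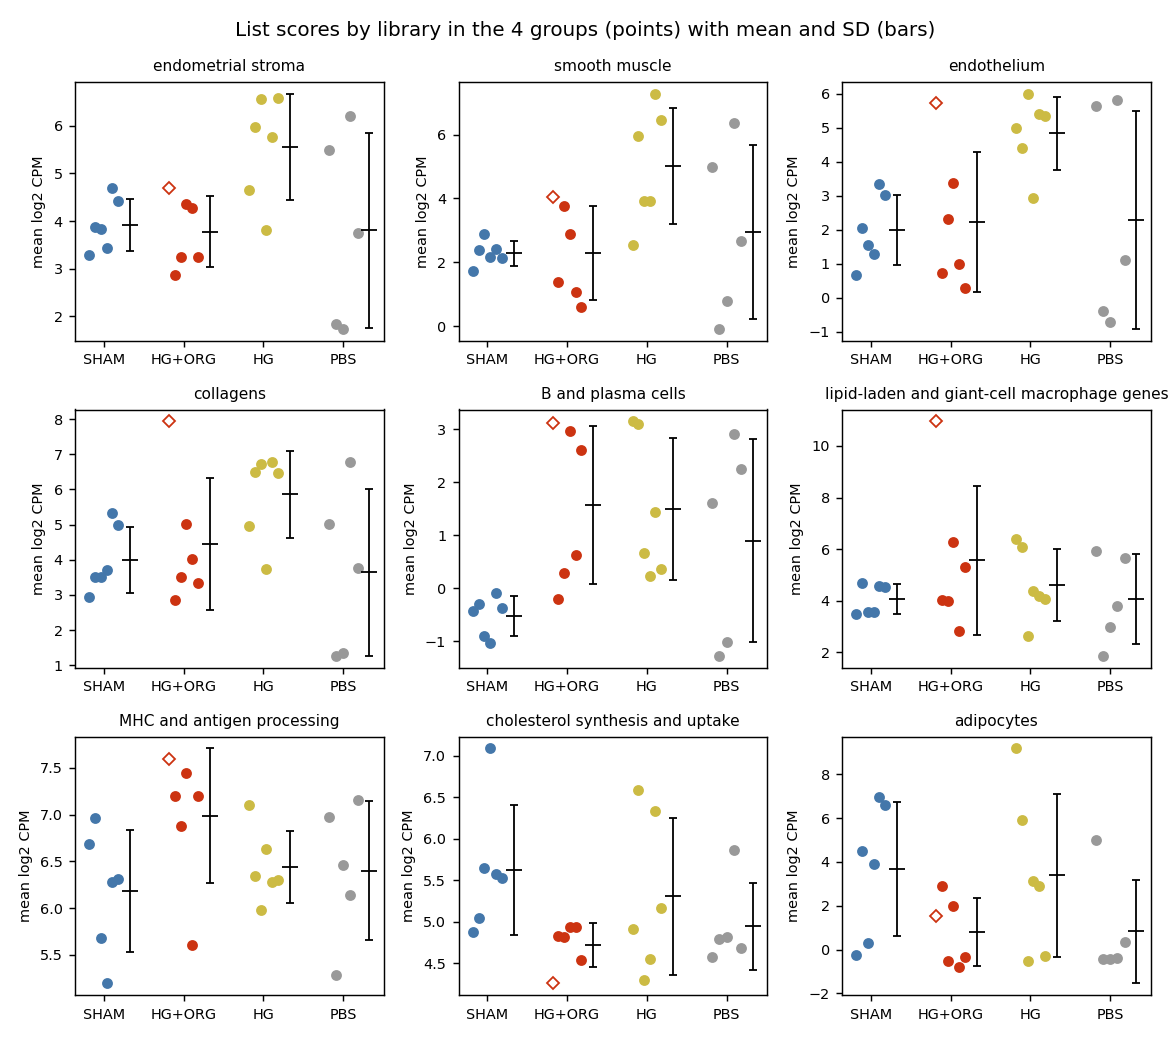
List scores as mean log2 CPM (y axes) for each library of the 4 groups, with the mean and SD as bars (n = 6, or 5 for PBS) and HG+ORG replicate 18 as an open diamond. Smooth muscle reaches 7.27 in HG against at most 4.04 in HG+ORG and 2.88 in SHAM, and B and plasma cell scores are low in all SHAM horns (-1.03 to -0.09).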

How the data were processed

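The authors deposited 1 table of raw counts per gene for 18682 features, of which 18341 had a symbol. The submitters' processing notes name HISAT2 2.2.1 and featureCounts 2.0.3 on build GRCm39, beside Trimmomatic 0.39 and DESeq2 1.42.1. Settings, including strand, are not stated, so overlapping and antisense genes may share reads. Reads of human organoid cells were not told apart from mouse reads. Per the labels' protocols the kit was stranded and 2 further samples were discarded.

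From these counts, edgeR 4.0.16 in R 4.3.3 (TMM scaling, filterByExpr by group, which removed 974 features, and a quasi-likelihood fit of all 4 groups without covariates) gave the contrast of HG+ORG over SHAM, once with all 23 libraries and once without HG+ORG replicate 18. SE was taken as the size of the fold divided by the root of F. DESeq2 1.42.0 and limma 3.58.1 were alternatives, with other scalings, filters and left-out libraries. The scripts were tested on simulated data. The members, the 42 gene lists and the tests were chosen with earlier results of these data known, and 3 lists were added after values were seen. Named genes were the 8 with the smallest p per direction and fit at a mean of at least 1 CPM, a set of 12 genes always named, and list members. Those of the first set that the text leaves out did not pass either, and some items are not reported here. Other genes, among them Cela1, Ciart and Polb, were chosen after their values were seen. Promoter windows came from RefSeq.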

Additional observations from a re-analysis of the deposited data

Results flagged for a closer look

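Within a group of 6 libraries, a value was singled out when the gap between the highest or lowest library and its nearest neighbour was too large a part of the group's whole range by Dixon's 95% criterion for 6 values. It held for 51 of 306 groups of 6 values, 16 of them list scores and 35 single genes. The criterion is set to single out about 1 in 20 groups of independent random values. That rate is no measure for the 51, because many genes were chosen by their values in these data and the groups share libraries. HG+ORG replicate 18 was the library in 24 of them. Scores and levels are in log2 CPM. HG+ORG replicate 18 was the highest of its group in the scores of angiogenic factors, at 4.97, pancreatic acinar cells, at 10.09 and ovarian steroidogenic cells, at 4.57. HG+ORG replicate 18 was the lowest of its group in the scores of luminal and general epithelium, at 5.50. HG+ORG replicate 21 was the highest of its group in the scores of implantation and receptivity, at 5.88 and Schwann cells and nerve, at 2.84. HG+ORG replicate 22 was the lowest of its group in the scores of MHC and antigen processing, at 5.61. SHAM replicate 2 was the highest of its group in the scores of inflammatory cytokines and chemokines, at 3.02 and erythrocytes, at 3.68. SHAM replicate 3 was the highest of its group in the scores of luminal and general epithelium, at 9.28, estrogen-responsive uterine genes, at 9.02 and hypoxia and glycolysis, at 7.65. SHAM replicate 3 was the lowest of its group in the scores of cell cycle, at 1.498 and squamous cells, at -0.68. SHAM replicate 4 was the highest of its group in the scores of cholesterol synthesis and uptake, at 7.09. SHAM replicate 4 was the lowest of its group in the scores of matrix proteases and inhibitors, at 2.00.

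Among single genes, HG+ORG replicate 18 was the highest for Cela1 at 10.80, Chil3 at 5.76, Ciart at 3.60, Csf1r at 8.18, Ctrl at 9.39, Ctsk at 11.66, Cxcl3 at 10.75, F10 at 7.14, Ms4a7 at 8.45, Spcs3 at 7.63, Tgfb1 at 8.09 and Trem2 at 9.87. HG+ORG replicate 18 was the lowest for Epcam at 7.13, Esr1 at 3.82, Fasn at 5.91, Krt8 at 7.12, Mbtps2 at 4.94, Sqle at 4.20, Tmx3 at 6.74 and Unk at 4.67. HG+ORG replicate 22 was the lowest for Cd74 at 6.11. SHAM replicate 2 was the highest for Cd200r4 at 0.0692 and Crct1 at -0.998. SHAM replicate 2 was the lowest for Smg8 at 4.48. SHAM replicate 3 was the highest for Ccdc47 at 7.20, Il10 at -0.41 and March6 at 7.26. SHAM replicate 3 was the lowest for Mki67 at 0.62. SHAM replicate 4 was the highest for Fdps at 7.96, Hmgcs1 at 8.26 and Sqle at 8.06. SHAM replicate 4 was the lowest for Atp6v0d2 at -2.66, Jchain at -2.66 and Psmb9 at 4.66. SHAM replicate 6 was the highest for Ciart at 0.0498.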

How the results depend on the processing

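The count of genes past the edgeR threshold stayed at 0 in every edgeR setting, including each of the 12 left-out libraries (0 to 0 genes), with smallest adjusted p of 0.0828 to 1.00 over the left-out libraries. DESeq2 gave 83 genes and sample quality weights in limma-voom 1. Against HG the same tools gave 163 and 281. No paired analysis was possible because the labels do not say which horns came from the same mouse. Of 108 genes followed, 96 kept their sign in every alternative. Many of the 108 were chosen by their values in these data and the alternatives share libraries, so this count is no independent support. Over all genes in both fits, 81.5% had the same sign with and without replicate 18. The 12 followed genes that changed sign are given here, with the range over left-out libraries last. Arg1 was 0.62 with quality weights and 2.73 without HG+ORG 18 and SHAM 3 (-1.94 to 2.88). Cd68 was -0.0269 in the pairwise fit without 18 and -0.17 without 18 and SHAM 4 (-0.0242 to 2.92). With quality weights, and without 18, 21 and SHAM 3, Col1a1 was -0.78 and -0.82 (0.48 to 3.49) and Col3a1 -1.04 and -1.33 (0.48 to 3.14). Ctsk was -0.14 without 18, 21 and SHAM 3 (0.77 to 8.05), and Epcam 0.0964 with quality weights (-0.66 to -0.21). With SHAM 5 and 6 summed, Hoxa10 was 0.12 (-1.04 to 0.25), Lif -0.0704 and Pgr 0.22. Igf1 was -0.38 with voom, -1.74 with quality weights and -0.90 in the pairwise fit without 18, and -1.08, -1.55 and -0.86 without 18 and SHAM 3, without 18, 21 and SHAM 3, and without 18 and SHAM 4 (-0.86 to 1.65). Lif was -0.22 with voom, -0.92 without 18, 21 and SHAM 3 and 0.98 without 18 and SHAM 3 (-1.75 to 0.86). Pgr was 0.19 in the pairwise fit without 18, 0.25 without 18, 21 and SHAM 3 and 0.0436 without 18 and SHAM 4 (-0.49 to 0.23). In those 3 settings Spp1 was -0.16, -0.33 and -0.22 (-0.16 to 3.43). Vegfa ranged from -0.12 to 1.02 over left-out libraries. The causes were not tested.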

Other observations

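Mast cell genes were outside the comparisons above. Cpa3, a mast cell protease, had 0 or 1 count per SHAM horn and 2, 2, 5, 23, 0 and 4 counts in HG+ORG replicates 18 to 23, and Cma1, a chymase, had 0 to 2 counts in SHAM and 2, 0, 7, 19, 0 and 6 in HG+ORG, with replicate 21 highest for both. Over the list of mast cells and eosinophils 6 of 6 folds were above 0, with medians of 1.86 and 1.96 without replicate 18. Crct1, a gene of skin-type epithelium, had 122, 14 and 26 counts in HG+ORG replicates 19, 21 and 23 and at most 5 in the other 9 libraries. Ciart, a repressor of the circadian clock, and Polb, a DNA repair polymerase, were among the 11 of 17708 genes (0.0621%) higher in every HG+ORG horn than in any SHAM horn. Their levels were 0.06 to 3.60 against -0.92 to 0.05 and 5.33 to 5.53 against 4.77 to 5.30 log2 CPM. The groups nearly touched: Ciart had 12 counts in SHAM replicate 6 and 12 in HG+ORG replicate 22. Both genes were picked after their values were seen. Erythrocyte genes had 6 of 6 folds above 0 in both fits, with medians of 1.47 and 0.67.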
